A study of Arabidopsis thaliana with 8 samples.

Results

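Aliphatic glucosinolate synthesis was followed through 10 genes, chosen by their Arabidopsis gene identifiers out of 33977 genes in the table: the regulators MYB28 and MYB29, the side chain elongation genes BCAT4, MAM1 and MAM3, and the core structure genes CYP79F1, CYP79F2, CYP83A1, SOT17 and SOT18. RNA was sequenced from floral buds of Arabidopsis thaliana at floral stages 8 to 10, pooled within a library, in wild type (WT) and in plants carrying pSTK::amiRNACWIN24. In this transgene the promoter of SEEDSTICK (STK), a gene of developing ovules, drives an artificial microRNA whose name refers to CWIN2 and CWIN4, which encode cell wall invertases. Each genotype had 4 biological replicates, and the transgenic plants came from 1 line, 4-3, so that the construct and any other feature of that line cannot be told apart. The ecotype is not given in the sources used here, nor whether replicates were grown as separate sets of plants, so the p-values measure the spread between these libraries.

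Glucosinolates are sulfur-rich defence compounds of the cabbage family that release toxic products when damaged tissue brings them together with the enzyme myrosinase. The aliphatic kind is made from methionine: its side chain is first lengthened in a cycle of additions in the chloroplast, the lengthened amino acid is then turned into the core structure by cytochrome P450 enzymes and later steps that end with the addition of sulfate, and the side chain is finally modified. R2R3 MYB factors, acting with MYC factors, switch these genes on, and flowers and seeds of Arabidopsis are rich in the products, partly through import by dedicated transporters.

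Levels were deposited as RPKM, reads per kilobase of exon scaled to the mapped reads of each library, which allow comparison between genes of different length. Each library held between 22470542 and 26697782 reads in genes, as worked back from the RPKM of genes with few reads. CWINV4, a gene the construct is named for, stood at 24.3, 25.2, 29.8 and 28.3 RPKM in WT replicates 1 to 4 and at 15.0, 11.2, 14.0 and 14.9 in amiRNACWIN24 replicates 1 to 4, so that the groups did not overlap. Its log2 fold change was -0.95 (SE 0.11), with an adjusted p of 0.00015 in limma. STK itself, whose promoter the construct uses, was lower too, with a mean of 0.599 ± 0.156 RPKM (SD, n = 4) against 9.82 ± 1.44 in the WT libraries. CWINV2 stood at 2.75 RPKM (180 reads) in WT replicate 1, at 0.0161 to 0.0317 RPKM in the other WT libraries and at 0.0166 to 0.104 RPKM in amiRNACWIN24 (exact permutation p 0.943). Its log2 fold change in the authors' deposited table was -3.72, with an FDR of 0.0022. Without WT replicate 1 it was at or below 6 reads in every library, which gives no check of the construct. All 5 floral bud identity markers (AP1, AP3, PI, AG and LFY) were detected in every library, with summed levels of 517 to 644 RPKM in WT and 465 to 511 RPKM in amiRNACWIN24.

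SOT17, CYP83A1, MAM1, SOT18 and MYB28 were higher in amiRNACWIN24 than in WT buds, by 1.50, 0.92, 1.38, 0.40 and 0.27 on the log2 scale, and no tested member fell. The test was limma on log2(RPKM + 0.5) over the 19082 genes whose mean reached 1 RPKM, with Benjamini-Hochberg adjustment over all of them and a threshold of 0.05, and a fold change on that scale understates the change of low genes. Of the 10 members, 6 reached that mean and were tested: 5 of these rose and BCAT4 did not pass. Across all genes tested, 29.4% rose and 21% fell by the same rule, so a rise was common in these buds. The median log2 fold change of the 6 tested members was 0.73, against 0.07 over all genes tested. MYB29, CYP79F1, CYP79F2 and MAM3 lay below the minimum mean, and their values are given by library below.

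**Figure D1:**
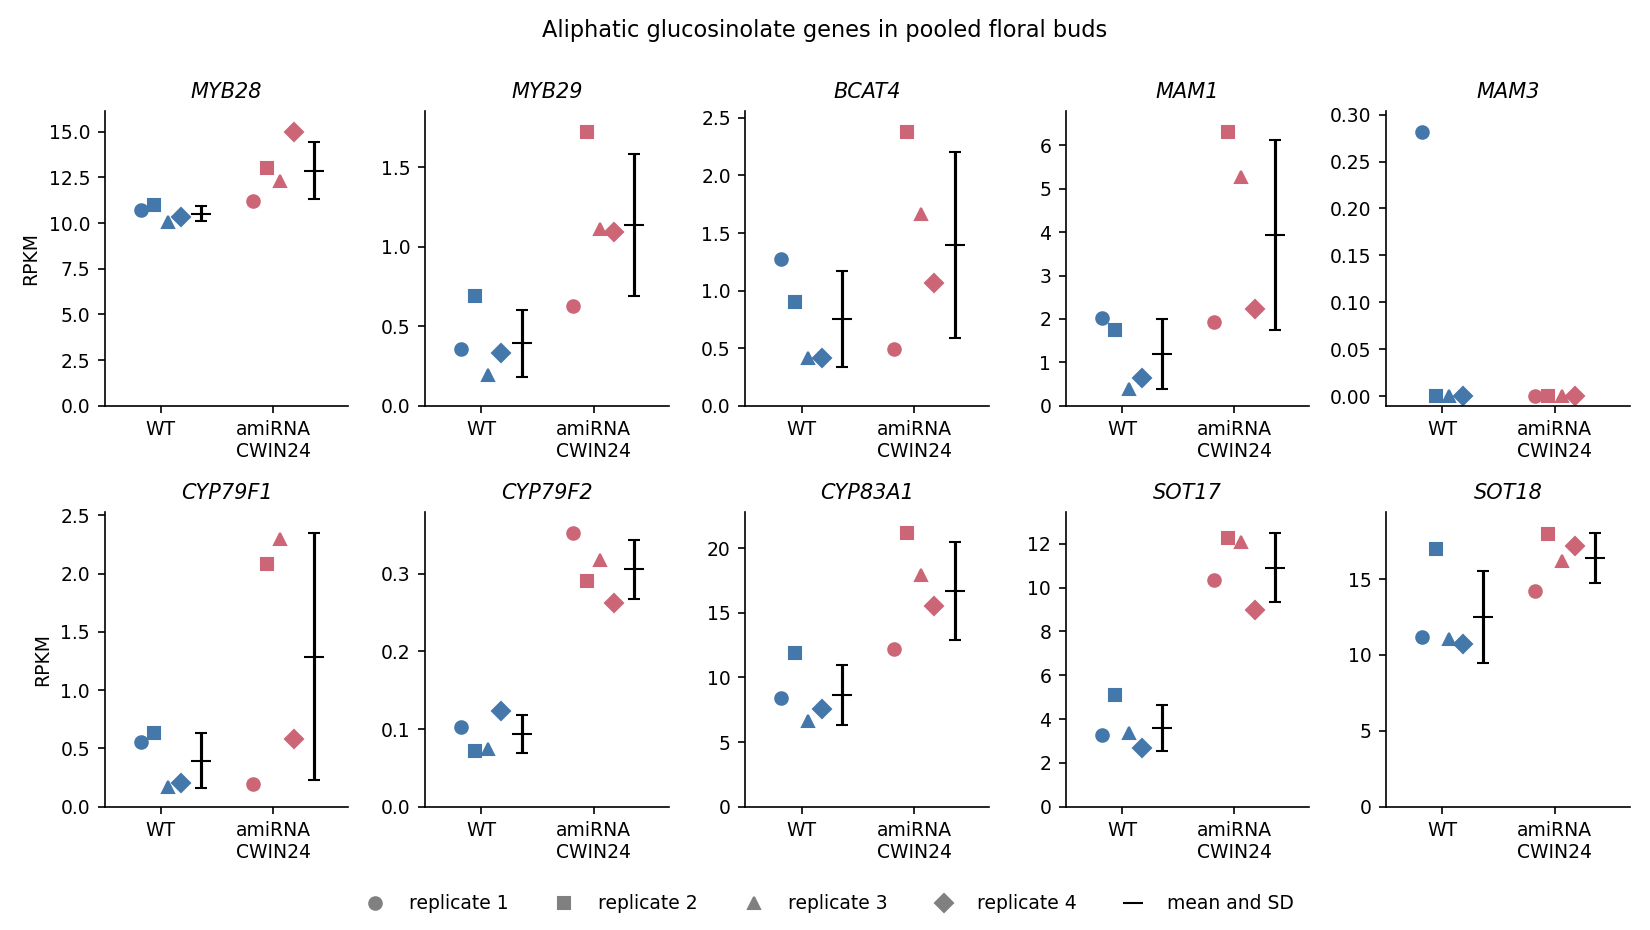
RPKM of the 10 genes in each library, with 1 panel per gene and each axis starting at or just under 0. Markers give the replicate number, and bars give the mean and SD of 4 libraries per genotype except for MAM3, which was above 0 in 1 WT library. The 2 genotypes do not overlap for MYB28, CYP79F2, CYP83A1 and SOT17, and amiRNACWIN24 replicate 1 is the lowest of its group for MYB28, MYB29, BCAT4, MAM1, CYP79F1, CYP83A1 and SOT18.

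Among the regulators, MYB28 (AT5G61420), the main activator of the aliphatic pathway, lies on chromosome 5 (chr5:24689069-24691187, minus strand; all positions are on TAIR10). It stood at 10.7, 11.0, 10.0 and 10.3 RPKM in WT replicates 1 to 4 and at 11.2, 13.0, 12.3 and 15.0 RPKM in amiRNACWIN24 replicates 1 to 4. The groups did not overlap, but the lowest amiRNACWIN24 library lay just above the highest WT library. The means were 10.5 ± 0.416 and 12.9 ± 1.58 RPKM (SD, n = 4 each), and the log2 fold change was 0.27 (SE 0.094, adjusted p in limma 0.032). Taken against each gene's mean over all libraries, log2 RPKM ran with exon length. It fell by 0.13 to 0.37 per doubling of length in WT libraries and rose by 0.19 to 0.25 in amiRNACWIN24 libraries. Centring on the mean forces slopes of both signs, so they show only how the libraries differ from each other. With that trend removed in each library, the value for MYB28 was 0.15 (adjusted p in limma 0.28), so its call rested on keeping the trend. The call was also lost under median-of-ratios and quantile scaling (adjusted p in limma 0.091 and 0.21), and without any 1 of WT replicates 3 and 4 and amiRNACWIN24 replicates 2, 3 and 4.

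MYB29 (AT5G07690), a further activator with partly overlapping targets, lies at chr5:2446669-2448584 on the same chromosome. It stood at 0.357, 0.692, 0.196 and 0.330 RPKM in WT replicates 1 to 4, from 18, 33, 9 and 16 reads. In amiRNACWIN24 replicates 1 to 4 it stood at 0.626, 1.72, 1.11 and 1.09 RPKM, from 29, 76, 51 and 50 reads. A single WT library, replicate 2, lay above the lowest amiRNACWIN24 library. The mean was 2.89 times as high in amiRNACWIN24, and the exact two-sided permutation test over the 4 and 4 libraries gave p = 0.0571, where the smallest p the design allows is 0.0286. MYB29 passed limma when genes of any level were tested (0.86 on the log2 scale, adjusted p 0.014). In the authors' deposited table its log2 fold change was 1.48 with an FDR of 0.0066. MYB28 and MYB29 share 81.1% of 1146 aligned exon bases and no stretch longer than 29 bases.

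The log2 ratio of MYB28 to MYB29 within a library was 4.89 ± 0.694 in WT and 3.58 ± 0.523 in amiRNACWIN24 (SD, n = 4 each). MYB28 was thus from 15.9 to 51.3 times as high as MYB29 in WT libraries and from 7.58 to 17.9 times in amiRNACWIN24 libraries. The ranges overlapped, and the difference of -1.30 had an exact permutation p of 0.0571 (0.0952 adjusted over the 5 gene ratios compared in all).

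Side chain elongation starts with BCAT4 (AT3G19710), the aminotransferase that takes the amino group from methionine (chr3:6846969-6849582, minus strand). It stood at 1.28, 0.900, 0.415 and 0.418 RPKM in WT replicates 1 to 4 and at 0.489, 2.37, 1.67 and 1.07 RPKM in amiRNACWIN24 replicates 1 to 4. Both groups spread widely and overlapped: amiRNACWIN24 replicates 1 and 4 lay within the WT range. The log2 fold change of 0.55 (SE 0.34) did not pass limma (adjusted p 0.20), and without amiRNACWIN24 replicate 1 it was 0.83 with an adjusted p of 0.048 in limma. BCAT4 overlaps IKU2 on the other strand, and whether the authors counted by strand is not given in the sources used here. IKU2 was listed at 0 in 7 of the 8 libraries.

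MAM1 (AT5G23010), a methylthioalkylmalate synthase that condenses the keto acid with acetyl-CoA in the cycle for short side chains, lies at chr5:7703041-7706973. Its levels were 2.03, 1.73, 0.385 and 0.644 RPKM in WT replicates 1 to 4, from 121, 98, 21 and 37 reads. They were 1.93, 6.30, 5.27 and 2.23 RPKM in amiRNACWIN24 replicates 1 to 4, from 106, 330, 286 and 121 reads. Each group split into a higher and a lower pair, and the lowest amiRNACWIN24 library lay under the highest WT library. The mean was 3.28 times as high in amiRNACWIN24, and MAM1 rose by 1.38 on the log2 scale (SE 0.41, adjusted p in limma 0.018), while the exact permutation test over libraries gave p = 0.0571. The call was lost without amiRNACWIN24 replicate 2 (1.13), without replicate 3 (1.20) and with the length trend removed (1.23, adjusted p in limma 0.073).

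MAM3 (AT5G23020), the neighbouring synthase that can build long side chains (chr5:7718118-7721866), was seen in 1 library. WT replicate 1 held 15 reads, or 0.282 RPKM, and the other 7 libraries held none, where a count of 0 allows up to 3 reads. No fold is given, and the exact permutation p was 1.0. MAM1 and MAM3 share 85.4% of 1458 aligned exon bases and no stretch longer than 30 bases. With 0.5 RPKM added to both, the log2 ratio of MAM1 to MAM3 was 1.47 ± 0.582 in WT and 3.01 ± 0.748 in amiRNACWIN24 (difference 1.54, exact permutation p 0.0286, adjusted 0.0714). In the 7 libraries where MAM3 was at 0 that ratio is a restatement of the level of MAM1.

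The core structure begins with CYP79F1 and CYP79F2, tandem cytochrome P450 genes whose enzymes turn lengthened methionine into aldoximes, CYP79F2 acting on long side chains. Their exons share 90.9% of 1338 aligned bases, and the longest stretch without a difference is 100 bases, inside the coding sequence of both. That stretch is printed with 20 bases on either side because it is the longest the pair shares, and the capitals mark the shared bases. A read short enough to lie wholly inside it could not be placed in 1 of the genes. The CYP79F1 window is chr1:5609946-5610085 and the CYP79F2 window is chr1:5606378-5606517, both on the plus strand (sequence from RefSeq, TAIR10.1).
CYP79F1: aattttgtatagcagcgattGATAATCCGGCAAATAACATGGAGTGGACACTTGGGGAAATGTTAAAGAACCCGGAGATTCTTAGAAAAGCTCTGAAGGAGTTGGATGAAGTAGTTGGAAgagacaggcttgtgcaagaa
CYP79F2: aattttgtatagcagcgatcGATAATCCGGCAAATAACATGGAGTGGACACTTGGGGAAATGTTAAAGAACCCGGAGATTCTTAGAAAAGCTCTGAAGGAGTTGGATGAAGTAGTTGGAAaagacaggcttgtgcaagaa
The reads were 125 bases long and paired, per the labels, and no window of that length was the same in both genes. How the authors treated reads that fit several places is not given in the sources used here, so the levels of these neighbours are uncertain to the extent that such reads were shared between them.

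CYP79F1 (AT1G16410, chr1:5608682-5612064) stood at 0.556, 0.632, 0.173 and 0.207 RPKM in WT replicates 1 to 4, from 53, 57, 15 and 19 reads. In amiRNACWIN24 replicates 1 to 4 it stood at 0.194, 2.08, 2.30 and 0.579 RPKM, from 17, 174, 199 and 50 reads. Replicates 2 and 3 of amiRNACWIN24 lay above every WT library, and replicate 1 lay among the lowest. The mean was 3.29 times as high in amiRNACWIN24, with an exact permutation p of 0.229, and CYP79F1 did not pass limma when genes of any level were tested (0.81, adjusted p 0.17). In the authors' deposited table it had a log2 fold change of 1.60 and an FDR of 0.0097.

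CYP79F2 (AT1G16400, chr1:5605044-5607498) stood at 0.102, 0.0719, 0.0746 and 0.124 RPKM in WT replicates 1 to 4, which is 6, 4, 4 and 7 reads. It stood at 0.352, 0.291, 0.318 and 0.263 RPKM in amiRNACWIN24 replicates 1 to 4, which is 19, 15, 17 and 14 reads. The groups did not overlap, and the libraries of a group lay close together, unlike those of CYP79F1. They lay closer than the error of counting so few reads gives, so the limma p may rest on too small a spread. The mean was again 3.29 times as high in amiRNACWIN24 (exact permutation p 0.0286), and with genes of any level tested the log2 fold change was 0.44 (adjusted p in limma 0.0011). The ratio of CYP79F1 to CYP79F2 was 5.45, 8.79, 2.31 and 1.67 in WT and 0.552, 7.15, 7.22 and 2.20 in amiRNACWIN24, so that CYP79F2 was the higher of the pair in amiRNACWIN24 replicate 1 alone. That library held 17 reads of CYP79F1 and 19 of CYP79F2. The ratios also depend on the annotated exon lengths, 3272 bases for CYP79F1 and 2018 for CYP79F2. The mean log2 ratio did not differ by more than the spread (difference -0.39, exact permutation p 0.83).

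CYP83A1, the P450 that oxidises the aldoximes (AT4G13770, chr4:7990429-7992429, minus strand), stood at 8.38, 11.9, 6.66 and 7.57 RPKM in WT replicates 1 to 4. It stood at 12.2, 21.1, 17.9 and 15.5 RPKM in amiRNACWIN24 replicates 1 to 4. The groups did not overlap, though WT replicate 2 lay close under amiRNACWIN24 replicate 1. The means were 8.63 ± 2.30 and 16.7 ± 3.78 RPKM (SD, n = 4 each). CYP83A1 rose by 0.92 on the log2 scale (SE 0.19, adjusted p in limma 0.0028). It was 0.81 with the length trend removed (adjusted p in limma 0.020).

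SOT17 and SOT18 encode the sulfotransferases that add the sulfate group in the last step of the core, and both accept aliphatic precursors. SOT17 (AT1G18590, chr1:6398531-6400029) stood at 3.25, 5.08, 3.36 and 2.67 RPKM in WT replicates 1 to 4 and at 10.3, 12.3, 12.1 and 8.97 RPKM in amiRNACWIN24 replicates 1 to 4. The groups lay far apart. The means were 3.59 ± 1.04 and 10.9 ± 1.56 RPKM (SD, n = 4 each), and the log2 fold change was 1.50 (SE 0.17, adjusted p in limma 0.00014), or 1.58 with the length trend removed (adjusted p in limma 0.00028). Of the 6 tested members, SOT17 had the smallest adjusted p.

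SOT18 (AT1G74090, chr1:27862814-27864193) stood at 11.2, 17.0, 11.1 and 10.7 RPKM in WT replicates 1 to 4 and at 14.2, 18.0, 16.2 and 17.2 RPKM in amiRNACWIN24 replicates 1 to 4. The groups overlapped through WT replicate 2. SOT18 rose by 0.40 on the log2 scale (SE 0.14, adjusted p in limma 0.039), and by 0.54 with the length trend removed (adjusted p in limma 0.018). The call was lost when any 1 of WT replicates 1, 3 and 4 or of amiRNACWIN24 replicates 2, 3 and 4 was left out, and under median-of-ratios and quantile scaling (adjusted p in limma 0.084 and 0.13). SOT18 shares 9 bases with the neighbouring gene AT1G74088 on the same strand.

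Within a library, SOT18 was 3.44, 3.35, 3.29 and 4.02 times as high as SOT17 in WT replicates 1 to 4, and 1.37, 1.47, 1.34 and 1.91 times in amiRNACWIN24 replicates 1 to 4. The log2 ratio was 1.81 ± 0.131 in WT and 0.59 ± 0.235 in amiRNACWIN24 (SD, n = 4 each). The groups did not overlap, and the difference of -1.22 had the smallest p the exact permutation test allows, 0.0286. Adjusted over the 5 ratios, that p became 0.0714 and did not pass the threshold of 0.05. At the smallest p the adjusted value is set by how many of the 5 ratios reach it, and not by the size of this difference. This ratio does not depend on how libraries were scaled to each other. The pair shares 82.4% of 1036 aligned exon bases and no stretch longer than 26 bases.

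**Figure D2:**
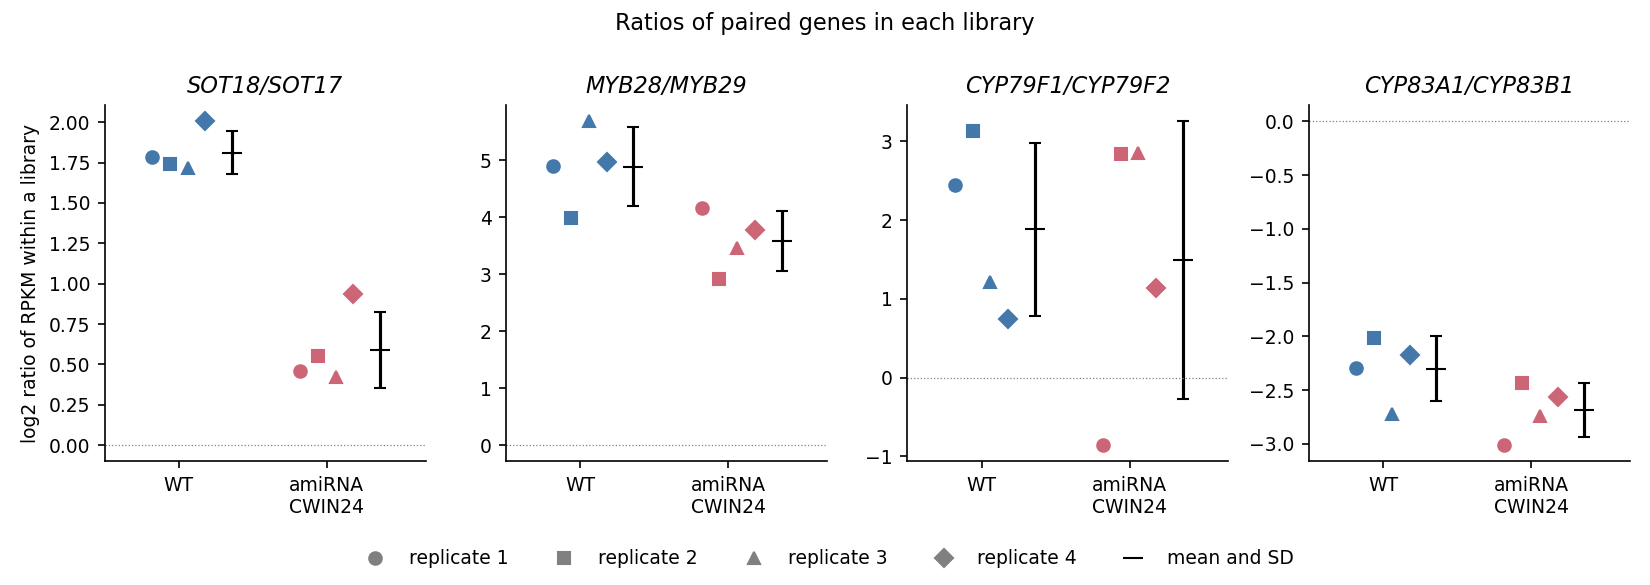
Log2 ratio of the RPKM of paired genes within each library, with 1 panel per pair, markers for the replicate number and bars for the mean and SD of 4 libraries. The SOT18/SOT17 ratios lie at 1.81 ± 0.131 in WT and 0.59 ± 0.235 in amiRNACWIN24 without overlap, while the other 3 pairs overlap between genotypes.

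The upstream windows of the 2 members with the smallest adjusted p are printed because both rose under every setting tried, and because binding motifs of the pathway's regulators can be looked for in them. MYC factors bind the G-box, CACGTG, and R2R3 MYB factors bind AC elements, searched here as ACCNANC, both on either strand in the 250 bases before the annotated gene start. The windows are chr1:6398281-6398530 for SOT17 on the plus strand and chr4:7992430-7992679 for CYP83A1 on the minus strand (RefSeq, TAIR10.1), and the capitals mark motif matches.
SOT17: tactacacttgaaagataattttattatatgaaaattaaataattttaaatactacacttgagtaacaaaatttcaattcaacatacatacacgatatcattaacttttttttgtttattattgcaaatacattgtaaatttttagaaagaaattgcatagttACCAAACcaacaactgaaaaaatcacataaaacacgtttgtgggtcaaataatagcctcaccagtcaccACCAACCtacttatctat
CYP83A1: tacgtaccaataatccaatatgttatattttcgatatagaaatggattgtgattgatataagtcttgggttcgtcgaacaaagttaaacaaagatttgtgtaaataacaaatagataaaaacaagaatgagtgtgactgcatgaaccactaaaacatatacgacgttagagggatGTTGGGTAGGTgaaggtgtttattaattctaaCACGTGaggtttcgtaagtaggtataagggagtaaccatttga
SOT17 held AC matches starting 87 and 18 bases before the gene start. CYP83A1 held overlapping AC matches, on the opposite strand, starting 75 and 71 bases before it, and a G-box starting 43 bases before it. Of the 10 members, 3 held an AC match (these and CYP79F2) and 1 held a G-box, against 27.5% and 5.9% of 32530 windows of the same length before all annotated genes. A match is a description of the letters and not a sign of binding.

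In both genotypes the order of levels put SOT18, MYB28 and CYP83A1 on top and the entry into the core near the bottom. In WT it ran SOT18, MYB28, CYP83A1, SOT17, MAM1, BCAT4, MYB29, CYP79F1, CYP79F2 and MAM3, from a mean of 12.5 RPKM for SOT18 to 0.0931 for CYP79F2 and 0.0704 for MAM3. Neighbours in that order overlapped between libraries except CYP83A1 and SOT17, SOT17 and MAM1, and CYP79F1 and CYP79F2. In amiRNACWIN24 it ran CYP83A1, SOT18, MYB28, SOT17, MAM1, BCAT4, CYP79F1, MYB29, CYP79F2 and MAM3, with gaps between SOT17 and MAM1, MYB29 and CYP79F2, and CYP79F2 and MAM3.

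The low members of elongation and CYP79F1 varied far more between replicates than counting error alone gives. The coefficient of variation in WT was 67.2% for MAM1, 60.2% for CYP79F1 and 55.5% for BCAT4, where counting error gives 12.0%, 16.7% and 18.0%. In amiRNACWIN24 it was 55.4%, 82.0% and 57.7%, where counting error gives 6.89%, 9.53% and 13.7%. The excess was not particular to these genes. In WT, CYP83A1, SOT17, SOT18 and MYB29 stood at 26.6%, 29.0%, 24.1% and 53.6%, where counting error gives 4.67%, 8.18%, 4.57% and 22.9%. MYB28 in WT was at 3.96%, where counting error gives 4.16%. The median over all genes tested was 11.9% in WT and 9.51% in amiRNACWIN24. CYP79F2 stayed at 26.4% and 12.5%, below the 43.6% and 24.8% of its counting error. These counting errors take the recovered reads as independent, which reads of amplified libraries are not.

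Markers of anther tissue moved between the libraries too. The 8 tapetum markers, genes of the cell layer that feeds pollen, summed to 180, 108, 428 and 285 RPKM in WT replicates 1 to 4 and to 914, 404, 331 and 775 RPKM in amiRNACWIN24 replicates 1 to 4; 6 of the 8 rose and none fell, and none was at 0. Within each genotype, the libraries ordered from high to low CYP79F1 were those ordered from low to high tapetum sum, and the higher MAM1 pair of each genotype was the pair with the lower tapetum sums. GSL-OH, which hydroxylates the side chain, showed the same split, at 23.5, 24.0, 7.65 and 5.96 RPKM in WT and 9.48, 17.3, 17.0 and 7.77 RPKM in amiRNACWIN24. BCAT4 and CYP83A1 were also highest in those pairs, and so was MYB29 by a narrow margin in amiRNACWIN24. MYB28 and SOT18 showed this split in WT only, SOT17 in amiRNACWIN24 only, and CYP79F2 in neither.

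The 5 late pollen markers summed to 116 to 293 RPKM in WT, highest in replicates 1 and 2, and to 18.1 to 28.8 RPKM in amiRNACWIN24; 3 fell and none rose. The 4 green tissue markers all fell, from sums of 11735 to 14658 RPKM to sums of 8520 to 10224 RPKM. The 4 phloem markers summed to 98.9 to 105 RPKM in WT and 115 to 138 RPKM in amiRNACWIN24, with 2 rising, and of the 6 ovule markers 2 rose and 3 fell, with sums of 61.3 to 80.6 RPKM and 65.6 to 92.4 RPKM. With the length trend removed, 1 of the 8 tapetum markers rose, and 2 of the 5 pollen markers and 1 of the 4 green tissue markers fell. The part of these tissues in the members' values was not tested, and in pooled buds fewer cells of a type and less RNA per cell cannot be told apart. With both WT replicates 1 and 2 left out, 5 of the 6 tested members rose, against 24.2% of all genes. CYP83A1 was then at 1.15 and SOT18 at 0.56 on the log2 scale. These WT libraries were the highest of their genotype for MYB28, BCAT4, MAM1, CYP83A1 and SOT18, so leaving them out raises those fold changes.

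**Figure D3:**
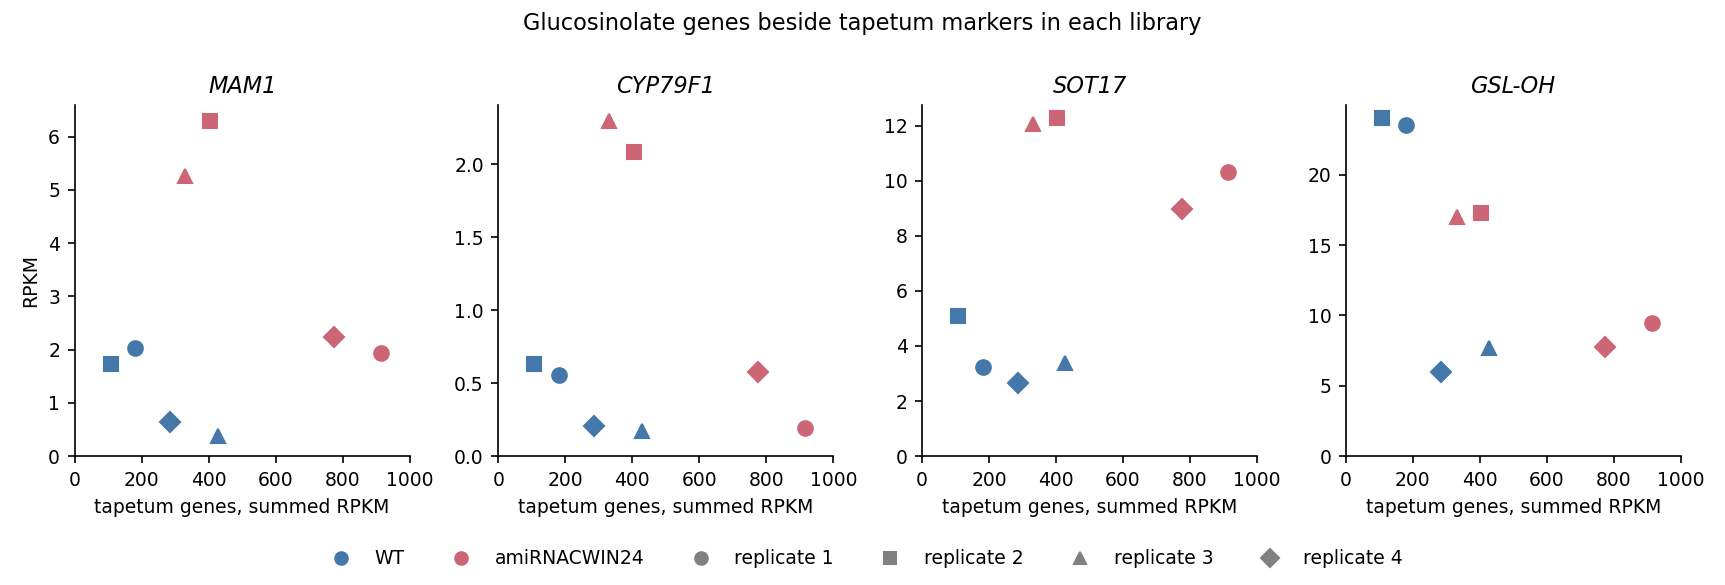
RPKM of MAM1, CYP79F1, SOT17 and GSL-OH against the summed RPKM of 8 tapetum markers in each of the 8 libraries, with colours for genotype and markers for the replicate number. SOT17 is higher in every amiRNACWIN24 library than in every WT library (2.67 to 5.08 RPKM in WT, 8.97 to 12.3 in amiRNACWIN24). MAM1, CYP79F1 and GSL-OH are higher in the libraries of a genotype with lower tapetum sums, and SOT17 is so in amiRNACWIN24 only. BCAT4, MYB29 and CYP83A1, not drawn here, split as MAM1 does. The tapetum sums of the genotypes overlap only in part (108 to 428 RPKM in WT, 331 to 914 in amiRNACWIN24).

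The count of members depended on the rule used. With genes of any level tested, 6 of 10 rose in limma (MYB29 and CYP79F2 passed and SOT18 did not), where 21.8% of all genes did. With recovered reads in limma-voom and a minimum of 10 reads in 4 libraries, a setting that was not planned, 7 of 9 rose, against 28.5% of all genes. One of the 7, CYP79F2, met that minimum only through the amiRNACWIN24 libraries, where it was high, so the filter itself favoured its call. With the length trend removed, 3 of 6 rose (CYP83A1, SOT17 and SOT18), against 15.1%. The libraries of the genotypes lay apart, amiRNACWIN24 above WT, for 3 of the 6 tested members, against 27.4% of all genes tested, and the other way round for none, against 18.4%. In the authors' deposited table, 6 of 10 were higher at an FDR below 0.05, against 15.6% of its genes with a value: MYB29, MAM1, CYP79F1, CYP79F2, CYP83A1 and SOT17. No tested member was lower in limma, or in limma-voom, even at an unadjusted p below 0.05, where 19.5% of all genes fell in limma-voom after adjustment.

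Other genes of the pathway rose in the same fit and none fell. Of 35 tested genes in 6 lists of regulators, elongation, core, side chain, transport and sulfate supply, 25 rose and 10 did not pass. Across all genes tested, 29.4% rose and 21% fell, and the same shares apply to each list below. The median log2 fold change of the 35 genes was 0.47, against 0.07 over all genes. None was lower at an unadjusted p below 0.05. With the length trend removed 20 of the 35 rose, against 15.1% of all genes. Of the 35, 1 was then lower in limma at an unadjusted p below 0.05 but not after adjustment.

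Among 6 other regulators tested, 5 rose. MYC2, the bHLH factor of jasmonate signalling that acts with the MYBs, went from 7.39 ± 1.45 to 20.9 ± 4.07 RPKM (SD, n = 4 each; log2 fold change 1.44, adjusted p in limma 0.00011). Its relatives MYC3 and MYC4 rose by 0.62 and 0.37, SLIM1, a regulator of sulfur starvation, by 0.36, and SDI1, a repressor of glucosinolate synthesis under low sulfur, by 0.80. SDI2 did not pass (0.32), and MYB76, the third MYB activator of the aliphatic branch, held 1 read in 1 WT library and none elsewhere. With the length trend removed, MYC2, MYC3 and SDI1 passed and MYC4 and SLIM1 did not.

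Of 6 other elongation genes, 3 rose: the plastid transporter BAT5 by 1.23 (adjusted p in limma 0.00090) and the isomerase subunits IPMI SSU2 and IPMI SSU3 by 1.30 and 1.03. IPMDH1, the dehydrogenase of the cycle, had a value of 0.74 and did not pass (adjusted p in limma 0.067). BCAT3 and IPMI LSU1, which also serve amino acid synthesis, were at 48.7 and 85.8 RPKM in WT and at 50.5 and 88.6 RPKM in amiRNACWIN24, and neither passed (0.050 and 0.046).

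Of 5 other core genes tested, 4 rose: the glucosyltransferases UGT74B1 (0.74) and UGT74C1 (0.58), the C-S lyase SUR1 (0.63) and the glutathione transferase GSTU20 (0.68). GGP1, which trims the glutathione conjugate, had a value of 0.34 and did not pass, and GSTF11 lay below the minimum level. Of 5 side chain genes tested, FMO GS-OX3, FMO GS-OX2 and FMO GS-OX4, which oxidise the side chain sulfur, rose by 1.22, 1.02 and 0.37, and FMO GS-OX5 (0.18) and GSL-OH (-0.07) did not pass. FMO GS-OX4 lost its call under 11 of 23 alternatives, among them the removal of the length trend (0.17, adjusted p in limma 0.42), and GSL-OH passed as higher without WT replicates 1 and 2 (0.80, adjusted p in limma 0.046). The transporter GTR1 rose by 0.74, and GTR2 did not pass (0.34). Of 11 genes of sulfate activation, reduction and glutathione synthesis, 9 rose, led by APK2, the kinase that makes the sulfate donor for SOT17 and SOT18 (15.7 ± 1.67 against 33.6 ± 2.26 RPKM, adjusted p in limma 3.1e-05). APR1, a sulfate reductase, rose by 0.71 and GSH2, the glutathione synthetase, by 0.47, and APS2 and APR2 did not pass. APR3 passed by a narrow margin (adjusted p in limma 0.0497) and lost its call under 15 of 23 alternatives.

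**Figure D4:**
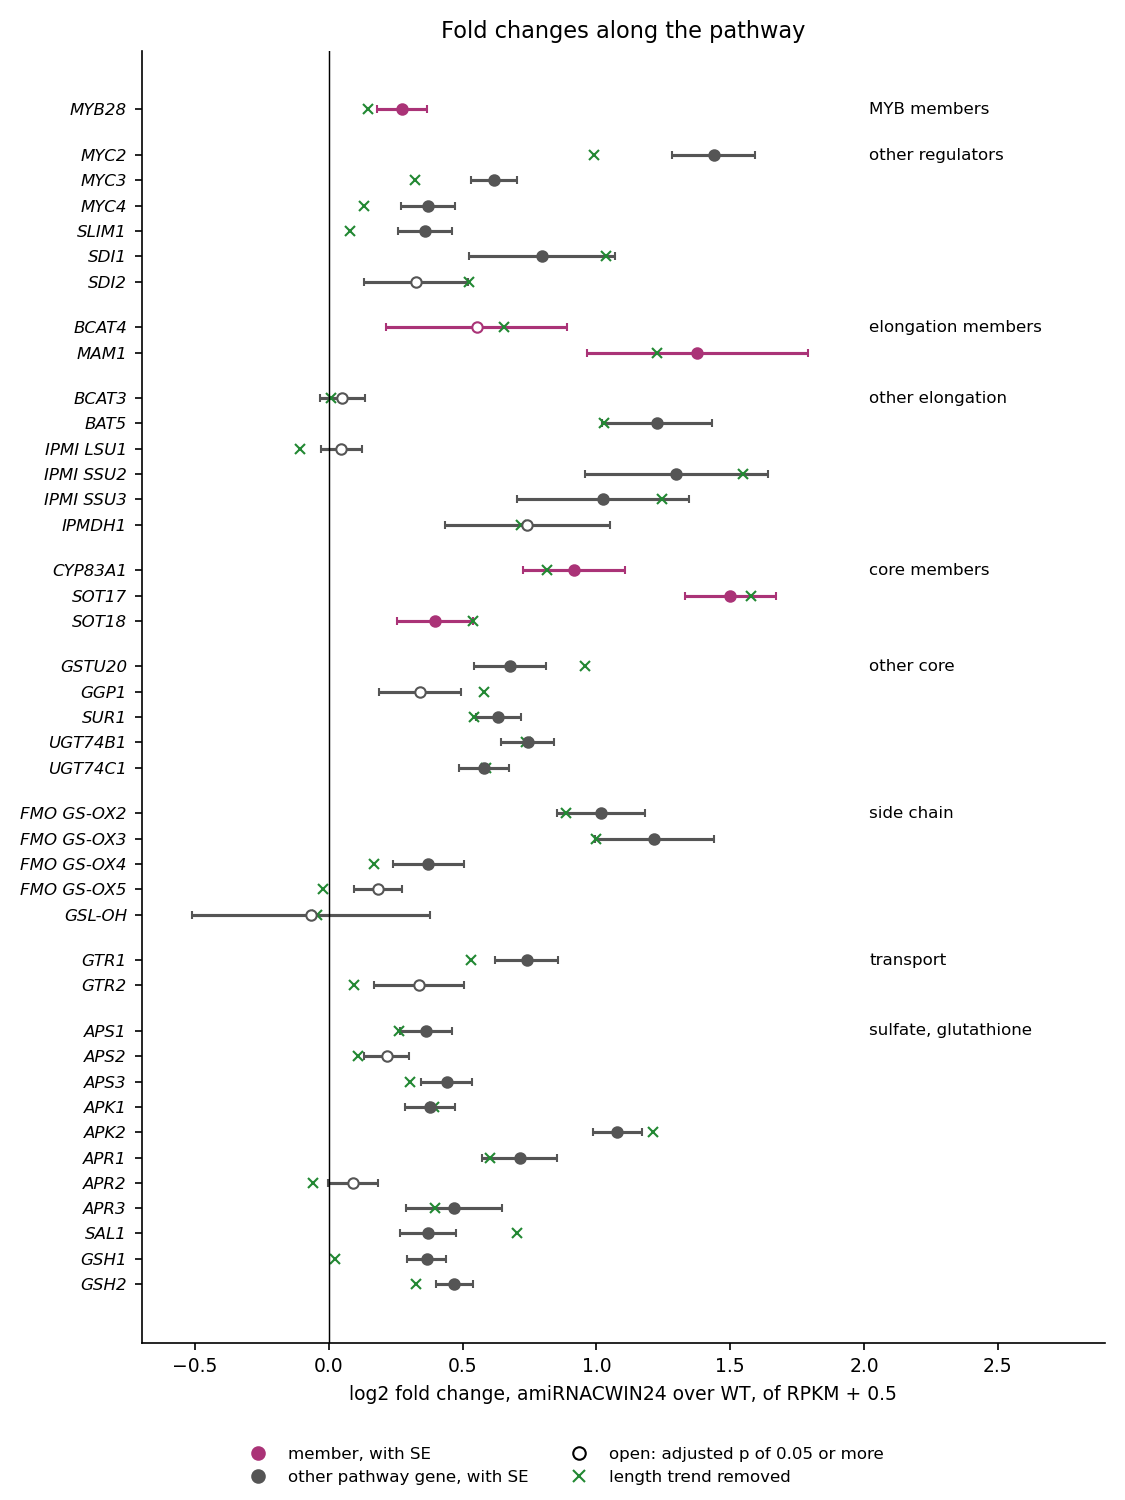
Log2 fold change of RPKM + 0.5, amiRNACWIN24 over WT, with its SE, for the 6 tested members and the 35 other tested genes of the pathway, grouped by role, with crosses for the value after the length trend was removed. Filled circles passed limma at an adjusted p below 0.05; of the members only BCAT4 is open, and SOT17 and MAM1 lie furthest to the right at 1.50 and 1.38.

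The indole branch, made from tryptophan with its own P450s, rose as well: 6 of 6 tested genes passed, against 29.4% of all genes. Their median log2 fold change was 1.19, and the largest were those of CYP79B2 (2.09) and CYP79B3 (1.90). With the length trend removed 5 of the 6 passed, against 15.1% of all genes. MYB51, an activator of this branch, did not (0.89, adjusted p in limma 0.063). CYP83A1 was 0.204, 0.248, 0.152 and 0.222 times as high as its indole counterpart CYP83B1 in WT replicates 1 to 4 and 0.124, 0.185, 0.150 and 0.170 times in amiRNACWIN24 replicates 1 to 4. The groups overlapped through WT replicate 3, and the difference of -0.38 in the log2 ratio had an exact permutation p of 0.114.

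The patterns nearest to each tested member over the 8 libraries were found by the Euclidean distance between log2(RPKM + 0.5) profiles centred on each gene's mean, among 19081 other genes. FMO GS-OX2 was nearest to CYP83A1 (distance 0.391), followed by CYCU2-2 and SCPL47, and CYP83B1 was nearest to SOT17 (0.408), followed by ELF4 and AT1G11210. For MAM1 the nearest were CSLB3, AT4G35690 and BGAL6, and for BCAT4 they were DREB2E, AT4G11350 and AT2G40390. For MYB28 they were LAX3, AT5G42690 and AKT2, and for SOT18 PRR1, XCP1 and AT1G61740. No member had another member among its 3 nearest genes: the nearest member ranked 55 for MAM1 (BCAT4), 93 for BCAT4 (CYP83A1), 128 for SOT17 (CYP83A1), 214 for SOT18 (MYB28), 258 for CYP83A1 (SOT18) and 4034 for MYB28 (SOT18).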

How the data were processed

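Paired-end RNA-seq libraries of pooled buds, 4 per genotype, were processed on the build TAIR10, per the submitters' processing notes. For the aligner, the counting, its strand setting and reads that fit several places, the setting is not given in the sources used here. The authors deposited RPKM per gene and library and a comparison table of log2 fold changes, p-values (FDR) and a fold change with negative sign for a decrease, treated as a score, whose test is not stated. It had no value for 8097 genes and was only quoted.

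Exon lengths came from the RefSeq TAIR10.1 annotation (32548 of 33977 genes matched, 32532 with the same coordinates). They showed RPKM steps that gave whole reads, within 0.05 read, for 99.6 to 99.7% of low values, in libraries of 22470542 to 26697782 reads in genes. Genes whose mean reached 1 RPKM were tested as log2(RPKM + 0.5) with limma 3.58.1 in R 4.3.3 (eBayes with trend, all 8 libraries, genotype alone, Benjamini-Hochberg). Members below that mean, and the ratios, were compared with exact two-sided permutation tests. Data were also simulated for 18736 genes, with a dispersion of 0.02 for every gene, 200 genes changed and no length trend. There 65 of 66 genes changed by 1 on the log2 scale were recovered and 22 of 66 changed by 0.5, with 7 false calls. MAM1, BCAT4, CYP79F1, MYB29 and CYP83A1 varied more between replicates than that dispersion gives, as did SOT17 and SOT18 in WT. These rates do not apply to those genes. The length trend was a natural spline with 4 degrees of freedom in each library.

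Named were all 10 members, the genes of the pathway and marker lists, the construct's genes and the 3 nearest patterns. Members and lists were chosen with earlier results of these data known. The side chain gene AOP2 was not analysed here. Alternatives were other pseudocounts, filters, scalings, weights, a replicate block, reads in voom and leaving libraries out.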

Additional observations from a re-analysis of the deposited data

Results flagged for a closer look

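In 2 of 41 groups checked, 1 library lay far from the others of its genotype; chance gives about 1 such group in 20. MAM3 was highest in WT replicate 1, at 0.282 RPKM, where the other WT libraries were at 0. SOT18 was highest among WT libraries in replicate 2, at 17.0 RPKM, and WT replicate 2 was also the highest WT library for MYB28, MYB29, CYP79F1, CYP83A1 and SOT17. Without WT replicate 2 the log2 fold change of SOT18 was 0.55 (adjusted p in limma 0.0017).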

How the results depend on the processing

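SOT17 and CYP83A1 rose under all 23 alternatives run. The 5 members that rose became 3 under median-of-ratios scaling and quantile normalization, where 27.5% and 28.8% of all genes rose. They also became 3 with the length trend removed, and with that removal and the replicate block, where 15.1% and 13.6% rose. With 1 library left out, 2 to 6 members rose, against 24.5% to 29.7% of all genes. Only CYP83A1 and SOT17 passed without amiRNACWIN24 replicate 2 or replicate 3. There 29.7% and 24.5% of all genes rose, so 2 of 6 tested members was little above those shares. Across all genes, 5611 rose and 3998 fell; with the length trend removed 2877 rose, and with the replicate block as well 2579 rose and 2360 fell. Some values changed sign. BCAT3 was -0.010 under median-of-ratios scaling and -0.017 without WT replicates 1 and 2. IPMI LSU1 was -0.014 and -0.025 under the same settings, and -0.11, -0.11 and -0.073 with the length trend removed alone, with the block and with no filter. FMO GS-OX5 was -0.021 and -0.021 with the trend removed alone and with the block, and APR2 was -0.060, -0.060 and, with no filter, -0.026. GSL-OH was 0.28 with array weights, 0.80 without WT replicates 1 and 2, where it passed (adjusted p in limma 0.046), and from -0.41 to 0.23 with 1 library left out (0.22, 0.23, 0.046 and 0.14 without WT replicates 1 and 2 and amiRNACWIN24 replicates 1 and 4). The CYP79F1/CYP79F2 log2 ratio difference was 0.37 with 0.5 RPKM added, 0.075 with the length trend removed, and -0.84 to 0.39 with 1 library left out. The same ranges were -1.60 to -1.04 for MYB28/MYB29, 1.29 to 1.78 for MAM1/MAM3 and -1.33 to -1.16 for SOT18/SOT17, and these passed (adjusted p 0.048 each) only without WT replicate 2. The causes were not tested, except that removing libraries lowers the number of samples.

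Same-numbered libraries of the 2 genotypes deviated together with correlations of -0.27, 0.14, -0.32 and 0.53, and only replicate 4 of WT correlated best with its own number. These correlations gave no clear sign of pairing by number, but they cannot exclude it, since other differences between libraries enter them too. With the replicate block, 5 of 6 tested members rose, against 29.2% of all genes (5581 rose and 3590 fell). Depth limits CYP79F2, MAM3 and WT MYB29, which rest on 0 to 33 reads in a library.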
